A study of Mus musculus with 12 samples.

Results

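Messenger RNA of 10 genes of lipoprotein assembly was examined in alcohol-fed and pair-fed mouse liver, namely the apolipoprotein genes Apoa1, Apoa2, Apoa4, Apoa5, Apob, Apoc2, Apoc3, Apoe and Apom, and Mttp. They were chosen by name, as the Ensembl gene IDs of the deposited count table that carry these symbols in GENCODE release M21, which gave 10 of 54232 IDs. Apolipoproteins are the protein part of lipoprotein particles, which carry triglyceride and cholesterol through blood, and the liver makes most of them. In the hepatocyte, apolipoprotein B is loaded with lipid by the microsomal triglyceride transfer protein, the product of Mttp, to give very low density lipoprotein (VLDL), which leaves the cell through the Golgi. The smaller apolipoproteins form high density lipoprotein (HDL) or sit on the surface of particles, where they guide lipases and receptors, and fatty liver is a known setting of changed VLDL secretion.

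The study used the intragastric feeding model of alcohol-associated steatohepatitis (ASH) and sequenced polyadenylated RNA of whole liver from male C57BL6/J mice, with the age given as 8-week in the labels and 1 library per mouse. The 7 alcohol-fed (AF) mice received ethanol through a stomach tube with a high-fat liquid diet, raised up to 27 g/kg/day over 8 weeks, plus a weekly binge of 5 g/kg, and the 5 pair-fed (PF) controls received the same kind of high-fat liquid diet with matched calories and no ethanol. No transgene or deletion is named for these mice. The regimen began with a solid Western diet rich in cholesterol and saturated fat or with chow. During the intragastric weeks the solid diet rich in cholesterol and fat supplied the rest of the calories beside the liquid diet. The study describes the PF mice by their high-fat liquid diet and does not say separately whether they ate this solid diet too. The PF livers are thus those of mice on a high-fat regimen, not on chow alone. The comparison asks which transcripts differ when alcohol is added to the diet. Between 24129900 and 28594027 reads per PF library and between 25099033 and 30578639 per AF library were counted on genes. Counts are given below as CPM, a gene's reads scaled to a fixed total per library, on library sizes scaled by TMM, a method that assumes most genes do not differ. The AF and PF groups were tested against each other across 14168 genes with the quasi-likelihood method of edgeR, with p-values adjusted over all of them and a threshold of 0.05. Expression of 9 hepatocyte markers summed to 107002 to 151348 CPM in PF and 68821 to 120824 CPM in AF livers, and 2 of the 9 were lower in AF at the threshold. Most of this sum was Alb, which did not pass (log2 fold change -0.60, edgeR adjusted p = 0.164). Ahsg alone went the other way, also without passing (0.52, edgeR adjusted p = 0.0755). Scaling to hepatocyte markers, used below, rests on the summed counts of these 9 and so mostly on Alb. Summed markers of macrophages rose from 496 to 761 CPM in PF to 953 to 2215 CPM in AF livers, with 8 of 9 genes past the threshold. Stellate cell markers (4 of 6 genes higher, summed 162 to 433 CPM in PF and 359 to 636 CPM in AF) and bile duct markers (4 of 5 higher, 49.5 to 244 CPM in PF and 70.3 to 1090 CPM in AF, most of it Spp1, the marker of the 5 that did not pass) moved in the same direction, and the part of these cells in the results below was not tested.

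Of the 10 genes, Apoa4 rose and Apoa1 fell in AF livers, while Apoa2, Apoa5, Apob, Apoc2, Apoc3, Apoe, Apom and Mttp did not pass the threshold. Of all genes tested, 39.8% passed it, with 22.0% higher and 17.8% lower in AF. Every AF liver lay above every PF liver for Apoa4, against 8.20% of all genes, and below every PF liver for Apoa1 and Mttp, against 9.49% of all genes. The median log2 fold change was -0.28 over the 10 genes and 0.04 over all genes tested. In whole tissue, fewer cells of a type and less RNA per cell cannot be told apart, and the summed hepatocyte markers were lower in AF than in PF livers for 5 of the 7 AF mice. Both calls held in all 24 alternative ways of processing, with log2 fold changes between 2.86 and 3.92 for Apoa4 and between -1.39 and -0.65 for Apoa1.

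**Figure D1:**
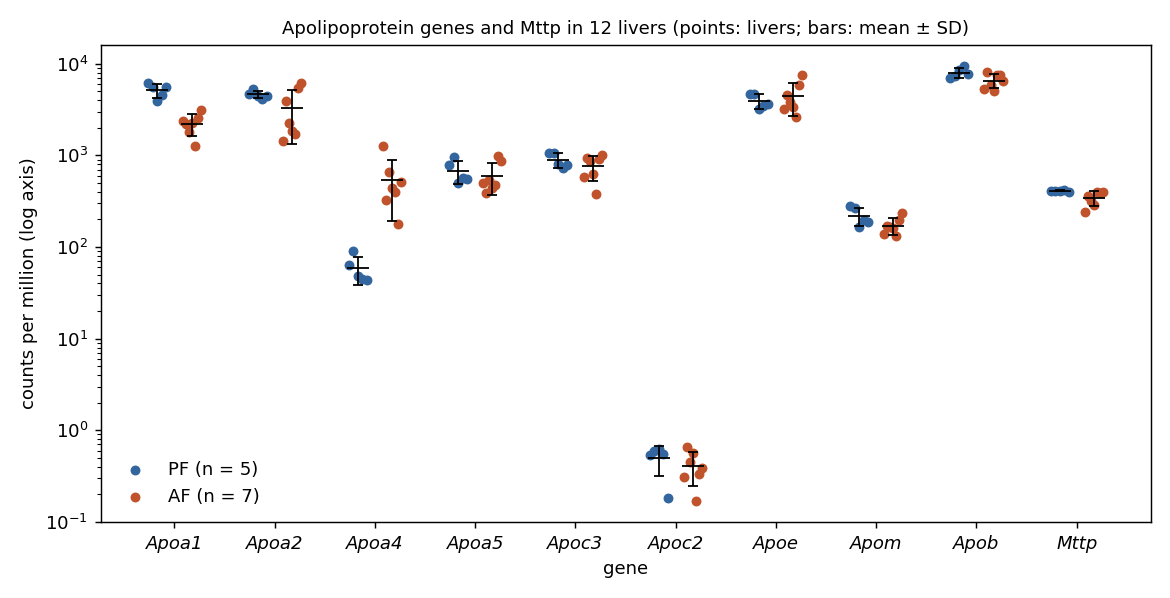
Level of each gene in CPM on a log axis, with 1 point per liver (blue, 5 PF; orange, 7 AF) and bars for the mean ± SD. The 7 AF points of Apoa4 lie between 179 and 1261 CPM, above the 5 PF points at 43.5 to 91.3 CPM, whereas the AF points of Apoa1 all lie below those of PF.

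Apoa4 encodes apolipoprotein A-IV, which is made mainly by the intestine in most mammals, also by the mouse liver, and rides on triglyceride-rich particles and HDL. The gene (ENSMUSG00000032080) lies on the plus strand of GRCm38 at chr9:46240696-46243459. PF livers had 64.0, 91.3, 48.0, 45.3 and 43.5 CPM in replicates 1 to 5. AF livers had between 179 and 1261 CPM with a median of 445 CPM. The lowest AF liver, replicate 6, was still above the highest PF liver, and the AF values spanned 7.06-fold among themselves. Mean levels were 58.4 ± 20.1 CPM in PF (SD, n = 5) and 542 ± 351 CPM in AF (SD, n = 7), a log2 fold change of 3.21 (SE 0.44, 95% interval 2.27 to 4.15, edgeR adjusted p = 1.88e-04). Per kilobase of exon, Apoa4 had the lowest level of the genes other than Apoc2 in PF (32.2 ± 11.1 CPM per kb) and reached 299 ± 193 CPM per kb in AF, above Apoa5. Of its 1815 exon bases, 1266 (69.8%) are also annotated on the opposite strand as part of Gm10680 or Gm47528, which had 66 and 19 counts in all libraries together against 133370 for Apoa4. The kit kept strand, but the strand setting of the counting is not given in the sources used here. Among markers of small intestine, the other main source of this transcript, Lct, Vil1 and Cdh17 had too few counts to be tested. The summed level of the 4 intestinal markers, nearly all of it Fabp2, was 37.9 to 65.4 CPM in PF and 32.8 to 66.2 CPM in AF.

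Apoa1 encodes apolipoprotein A-I, the main structural protein of HDL and the activator of the enzyme that esterifies its cholesterol. The gene (ENSMUSG00000032083) lies 12.1 kb upstream of Apoa4 on the same strand, at chr9:46228580-46230466. PF livers had 6147, 5610, 3915, 4528 and 5534 CPM in replicates 1 to 5, and AF livers had between 1263 and 3108 CPM with a median of 2269 CPM. The groups did not overlap: the highest AF liver, replicate 7, lay below the lowest PF liver, replicate 3. Mean levels were 5147 ± 904 CPM in PF (SD, n = 5) and 2220 ± 581 CPM in AF (SD, n = 7), 2.32-fold lower in AF (log2 fold change -1.21, SE 0.22, 95% interval -1.68 to -0.74, edgeR adjusted p = 0.00117). No exon base of Apoa1 is shared with another annotated gene.

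The stretches just before the RefSeq start sites of the genes that moved, Apoa1 and Apoa4, and of the pair that builds the VLDL particle, Apob and Mttp, are shown for the letters before one annotated start of each. Each holds the 250 bases before the start on the gene's own strand in GRCm38.p6, from RefSeq, at chr9:46228380-46228629 (Apoa1, plus), chr9:46240594-46240843 (Apoa4, plus), chr12:7977427-7977676 (Apob, plus) and chr3:138143419-138143668 (Mttp, minus). The genes as annotated by GENCODE can begin earlier, so that 50 of the bases of the Apoa1 window, 148 of Apoa4, 29 of Apob and all 250 of Mttp, whose window begins 1.3 kb inside the gene, lie within the gene that was counted. Capitals mark exact matches to 5 motifs, looked for on both strands.
Apoa1: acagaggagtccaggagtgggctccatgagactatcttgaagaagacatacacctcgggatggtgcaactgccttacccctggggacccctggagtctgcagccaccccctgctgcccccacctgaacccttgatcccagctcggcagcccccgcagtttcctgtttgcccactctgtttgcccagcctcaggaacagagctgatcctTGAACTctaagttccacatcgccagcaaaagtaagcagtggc
Apoa4: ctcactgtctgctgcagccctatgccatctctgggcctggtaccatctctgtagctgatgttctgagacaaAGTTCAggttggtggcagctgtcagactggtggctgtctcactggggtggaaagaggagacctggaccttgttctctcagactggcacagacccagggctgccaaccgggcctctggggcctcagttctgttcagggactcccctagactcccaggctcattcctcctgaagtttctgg
Apob: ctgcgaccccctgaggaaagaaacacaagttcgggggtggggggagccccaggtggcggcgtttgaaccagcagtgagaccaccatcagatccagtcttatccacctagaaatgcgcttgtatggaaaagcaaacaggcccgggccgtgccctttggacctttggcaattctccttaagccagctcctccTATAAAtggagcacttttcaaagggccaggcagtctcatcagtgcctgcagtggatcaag
Mttp: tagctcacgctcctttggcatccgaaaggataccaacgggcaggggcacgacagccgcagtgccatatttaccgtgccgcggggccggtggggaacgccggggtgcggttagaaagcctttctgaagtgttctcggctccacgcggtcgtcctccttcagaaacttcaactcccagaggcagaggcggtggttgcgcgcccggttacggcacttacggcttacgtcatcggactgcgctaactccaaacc
The motifs were the TATA box core TATAAA, the nuclear receptor half-site AGGTCA with its variants AGTTCA and GGGTCA, and the HNF4A core CAAAGTCCA, and no 2 matches overlapped in these 4 windows. Apoa1 and Apoa4 each hold AGTTCA once, on the reverse strand of Apoa1 at bases -42 to -37 from the start and on the forward strand of Apoa4 at -179 to -174. These letters are in 11.9% of all 32817 RefSeq windows of the same length. Apob holds TATAAA at -60 to -55, as 12.4% of all windows do, and the Mttp window holds none of the 5. Windows of other genes hold TATAAA too: Apoa2 at -212 to -207, and Apoa5 at -31 to -26 or -56 to -51, depending on the start. So does 1 of the Apoe starts, on both strands, at -96 to -91 and -100 to -95. Among the others, Apom, with 249 bases of its window inside the gene, holds GGGTCA at 2 places and Apoa5 and the first Apoe start hold it too, against 11.6% of all windows, and Apoc2 and 1 of the starts of Apoa2 hold AGGTCA, against 14%. No window of these genes holds CAAAGTCCA, which is in 0.384% of all windows. RefSeq windows were at hand for 9 of the 10 genes. A match is a description of letters only.

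Apoc3 and Apoa5 complete the gene cluster on chromosome 9 and act against each other on triglyceride: apolipoprotein C-III slows lipolysis by lipoprotein lipase, and apolipoprotein A-V promotes it. Apoc3 lies between Apoa1 and Apoa4 on the minus strand (chr9:46232933-46235636) and Apoa5 beyond Apoa4 on the plus strand (chr9:46268633-46271919). Neither passed the threshold. Apoc3 had 890 ± 160 CPM in PF and 758 ± 231 CPM in AF, with PF livers at 734 to 1067 CPM and AF livers at 381 to 1005 CPM. Its log2 fold change was -0.23 (95% interval -0.72 to 0.25, edgeR adjusted p = 0.431). Apoa5 had 672 ± 190 CPM in PF (495 to 950 CPM) and 596 ± 228 CPM in AF (393 to 980 CPM), which gave a log2 fold change of -0.17 (95% interval -0.72 to 0.38, edgeR adjusted p = 0.610). The groups overlapped for both genes, and the intervals leave room for a fall as well as a small rise. Of the exon bases of Apoa5, 524 are also annotated to Gm47544 on the opposite strand. With library totals in place of TMM the signs of both turned, to 0.10 for Apoc3 and 0.15 for Apoa5, again not past the threshold. Beyond the cluster, the neighbouring genes Sik3, Zpr1 and Bud13 had log2 fold changes of -0.24, -0.45 and -0.33 and did not pass either.

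**Figure D2:**
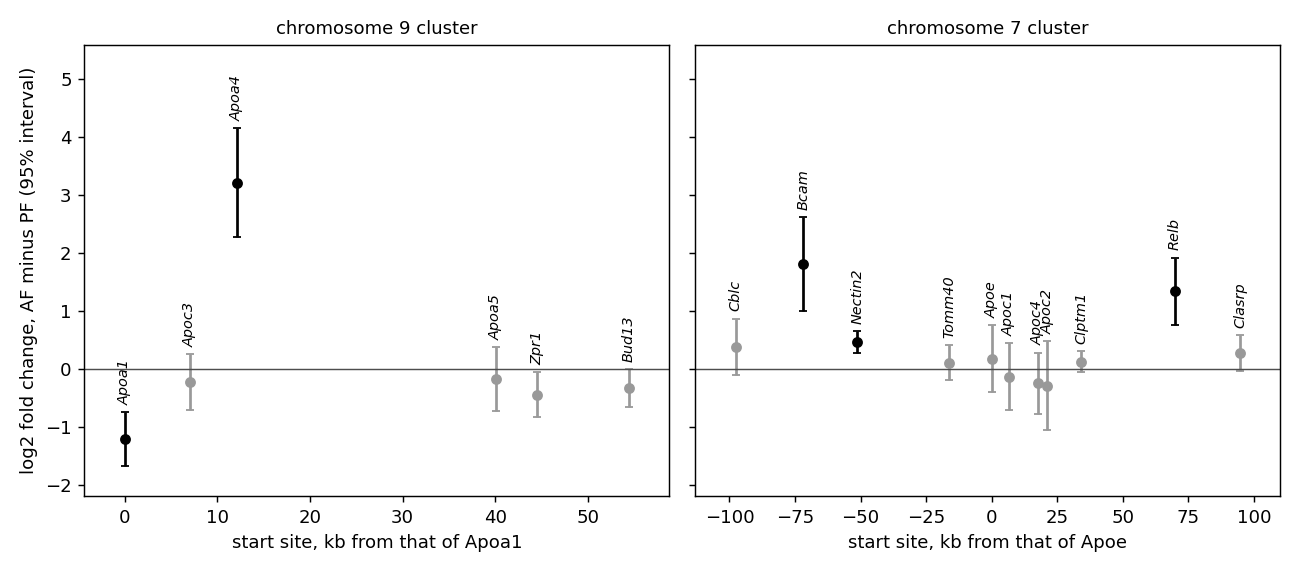
Log2 fold change (AF minus PF, with 95% intervals) of genes tested in both apolipoprotein clusters, against the distance of the start site from that of Apoa1 or Apoe in kb; black points pass the threshold. In the left panel Apoa4 (3.21) and Apoa1 (-1.21) lie 12.1 kb apart with Apoc3 (-0.23) between them, and in the right panel the intervals of Apoe, Apoc1, Apoc4 and Apoc2 include 0 while Bcam (1.81), Nectin2 (0.46) and Relb (1.34) pass higher.

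Ratios of reads within a library do not depend on how libraries are scaled, and 8 such ratios were compared with an exact two-sided permutation test over all splits of the livers into groups of 5 and 7, which cannot give a p below 0.00126. For every 100 Apoa1 reads there were 0.786 to 1.63 Apoa4 reads in PF and 7.04 to 53.2 in AF livers, a log2 difference of 4.29 (exact permutation p = 0.00126, adjusted over the 8 ratios p = 0.00337). The ratio of Apoc3 to Apoa1 was higher in AF by 0.96 on the log2 scale and that of Apom to Apoa1 by 0.89, both without overlap between the groups (exact permutation p = 0.00126 each, adjusted p = 0.00337 each). The ratio of Apoa5 to Apoa1 was higher by 1.03 (exact permutation p = 0.00379, adjusted p = 0.00758). Within the AF livers Apoa1 was thus lower relative to the 3 other genes of its cluster and to Apom than within the PF livers. All of these ratios divide by Apoa1, so its fall enters each of them and they are not independent results. The ratio of Apoa2 to Apoa1 was 0.52 higher in AF and did not pass (exact permutation p = 0.134, adjusted p = 0.214). Without AF replicate 1 it was 0.70 (exact permutation p = 0.026).

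Apob encodes apolipoprotein B, the large scaffold of VLDL of which each particle holds a single copy, and it had the most reads of the 10 genes. It lies at chr12:7977648-8016835 on the plus strand. PF livers had 6920, 7425, 8490, 9367 and 7750 CPM in replicates 1 to 5, and AF livers had between 5030 and 8030 CPM with a median of 6525 CPM. In AF, 4 of 7 livers lay below the lowest PF liver and the others within the PF range. The log2 fold change was -0.29 (SE 0.19, 95% interval -0.70 to 0.13, edgeR adjusted p = 0.254), and its sign turned to 0.05 with library totals and 0.25 with scaling to hepatocyte markers.

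Mttp lies at chr3:138089854-138144968 on the minus strand. PF livers had 411, 411, 413, 424 and 401 CPM, a spread of 7.89 CPM (SD) that was narrow beside that of the AF livers at 62.2 CPM. AF livers had between 241 and 400.0 CPM with a median of 362 CPM, so that every AF value lay below every PF value, though the highest AF liver was close to the lowest PF liver at 401 CPM. The log2 fold change was -0.27 (SE 0.13, 95% interval -0.56 to 0.02) and did not pass the threshold (edgeR adjusted p = 0.118), and its sign turned to 0.06 with library totals. With limma-voom and sample quality weights, which give livers that stand apart less weight, Mttp and Apob passed at -0.34 (limma adjusted p = 0.0113) and -0.40 (limma adjusted p = 0.0334). Under this setting 7513 of 14168 genes passed, against 5635 in the main fit. The ratio of Mttp to Apob reads was the same in both groups within the spread: its log2 value was -4.27 ± 0.154 in PF and -4.27 ± 0.166 in AF (SD), a difference of 0.005 (exact permutation p = 0.960). Of the exon bases of Mttp, 457 are shared with Trmt10a and 132 with Gm43691, both on the opposite strand.

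Among the HDL proteins, Apoa2 encodes apolipoprotein A-II, second to A-I in HDL, and Apom encodes apolipoprotein M, the carrier of sphingosine-1-phosphate. Apoa2 (chr1:171225054-171226379, plus strand) had 4172 to 5358 CPM in PF livers, with a mean of 4641 ± 442 CPM (SD, n = 5). AF livers ran from 1429 to 6166 CPM with a median of 2262 CPM, 5 of them below every PF liver and 2, replicates 6 and 7, above every PF liver. The log2 fold change was -0.51 (SE 0.36, 95% interval -1.29 to 0.26, edgeR adjusted p = 0.269). The SD of its log2 CPM was 0.133 in PF and 0.848 in AF. With sample quality weights, under which 7513 of 14168 genes passed against 5635 in the main fit, it passed at -0.81 (limma adjusted p = 0.0183). Apom (chr17:35128997-35132050, minus strand) had 164 to 277 CPM in PF and 131 to 234 CPM in AF livers, with a fitted log2 difference of -0.35 (SE 0.17, 95% interval -0.72 to 0.01, edgeR adjusted p = 0.107). Without AF replicate 7, its highest AF liver, the log2 fold change of Apom was -0.45 (edgeR adjusted p = 0.0385), and with scaling to hepatocyte markers its sign turned to 0.20.

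Apoe encodes apolipoprotein E, the ligand by which remnant particles are taken up, and is made by hepatocytes and also by macrophages and stellate cells. It lies at chr7:19696109-19699188 on the minus strand. PF livers had 4642, 4727, 3190, 3461 and 3606 CPM in replicates 1 to 5, and AF livers had between 2611 and 7627 CPM with a median of 3858 CPM. The AF values reached both below and above the PF range, with replicates 6 and 7 at 5861 and 7627 CPM and replicate 5 the lowest. The log2 fold change was 0.18 (SE 0.27, 95% interval -0.40 to 0.75, edgeR adjusted p = 0.626), and without AF replicate 7 it was -0.01. With library totals Apoe passed the threshold at 0.49 (edgeR adjusted p = 0.0463), a scaling under which the median of all genes was 0.40. Summed macrophage and stellate cell markers were higher in every AF liver than in PF livers for macrophages and in 6 of 7 for stellate cells, and their part in the level of Apoe was not tested.

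Apoc2 encodes apolipoprotein C-II, the obligatory cofactor of lipoprotein lipase, and lies downstream of Apoe with Apoc1 and Apoc4. In the table it had only 145 counts over all 12 libraries, 4 to 18 per library, whereas Apoc1 and Apoc4 had 759162 and 58763. Of its 813 exon bases, 646 (79.5%) are shared on the same strand with the readthrough gene Gm44805 (chr7:19671584-19681423), and HTSeq in its default mode counts reads that fit 2 genes for neither, though the mode and annotation used are not given in the sources used here. The 0.505 ± 0.199 CPM per kb in AF and 0.613 ± 0.222 CPM per kb in PF livers are therefore not read as a measure of the gene's expression. Its fitted log2 fold change of -0.29 (95% interval -1.06 to 0.48, edgeR adjusted p = 0.537), which turned to 0.07 with library totals, and the log2 differences of -0.37 and 0.02 in the ratios of Apoc2 to Apoe and to Apoc3 reads therefore say nothing of whether Apoc2 differed. Apoc1, which moderates particle uptake, had 2486 ± 162 CPM in PF and 2265 ± 1001 CPM in AF, a log2 fold change of -0.13 (edgeR adjusted p = 0.716), which turned to a positive sign with library totals.

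**Figure D3:**
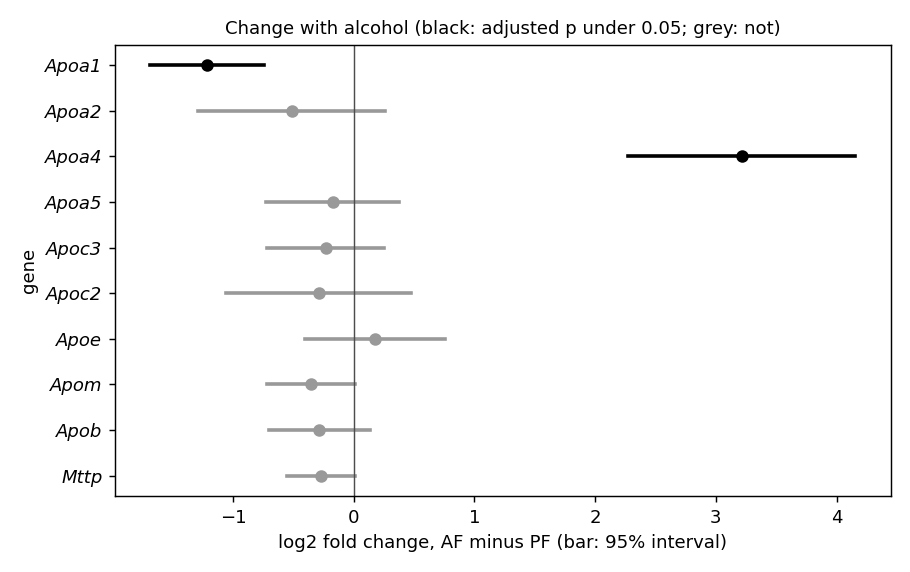
Log2 fold change (AF minus PF) of the 10 genes with 95% intervals; black, past the threshold. Apoa4 (3.21) and Apoa1 (-1.21) stand clear of 0, and the intervals of the other 8 genes include 0, that of Apoa2 being the widest of the 8.

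Levels of different genes can be set side by side only per length, and on this scale the order of the genes changed with alcohol. The length used was that of the merged exons of all annotated transcripts of a gene. It can exceed that of the main transcript and so lower the level per kb. In PF livers Apoa2 led with 8642 ± 822 CPM per kb, ahead of Apoa1 with 4164 ± 731, Apoe with 1836 ± 332, Apoc3 with 878 ± 158 and Apob with 573 ± 68.7 CPM per kb (SD, n = 5). Below them came Apoa5 at 266 ± 75.5, Apom at 216 ± 48.9, Mttp at 66.4 ± 1.27 and Apoa4 at 32.2 ± 11.1 CPM per kb. The PF ranges of neighbours in this order did not overlap except for Apoa5 and Apom. In AF livers Apoe (2073 ± 824 CPM per kb) stood before Apoa1 (1796 ± 470 CPM per kb), and Apoa4 moved from the place below Mttp to the place above Apoa5. Apoc2 aside, the AF ranges of neighbours overlapped except between Apoa1 and Apoc3 and between Apom and Mttp. The 10 genes together took 2.08% ± 0.065 of all counts in PF and 2.04% ± 0.276 in AF livers (SD), a difference within the spread (exact permutation p = 0.865).

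The AF livers differed among themselves more than the PF livers did. The SD of log2 CPM was larger in AF for 8 of the 10 genes, the same direction as for 71.8% of all genes tested. Replicates 6 and 7 had the highest AF levels of Apoa1, Apoa2, Apoa5, Apoe and Apom. Against the PF mean, Apoe was 0.60 and 0.98 higher in these livers on the log2 scale and -0.57 in replicate 5, and Apoa2 was 0.22 and 0.42 higher and -1.69 in replicate 1. For Apoa4 the order was another: replicate 6 had the smallest excess over PF at 1.67 and replicate 1 the largest at 4.49, while replicate 7 stood at 3.21. The summed hepatocyte markers were 120824 and 118536 CPM in replicates 6 and 7, within the PF range, and 68821 to 88644 CPM in the other 5 AF livers. Replicates 6 and 7 also had more reads on short transcripts, by 0.189 and 0.191 (log2, median deviation of the 453 genes of at most 1500 bases minus that of the 3926 genes of at least 5000 bases), while replicate 1 had fewer, by -0.239. The PF livers ran from -0.131 to 0.210 on this measure, the difference between the groups being within the spread (exact permutation p = 0.730). With an offset for transcript length in each library, chosen after seeing the data, Apoa2 had a log2 fold change of -0.42 (edgeR adjusted p = 0.272) and Apoe of 0.21 (edgeR adjusted p = 0.475). The part of cell makeup in these differences was not tested.

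**Figure D4:**
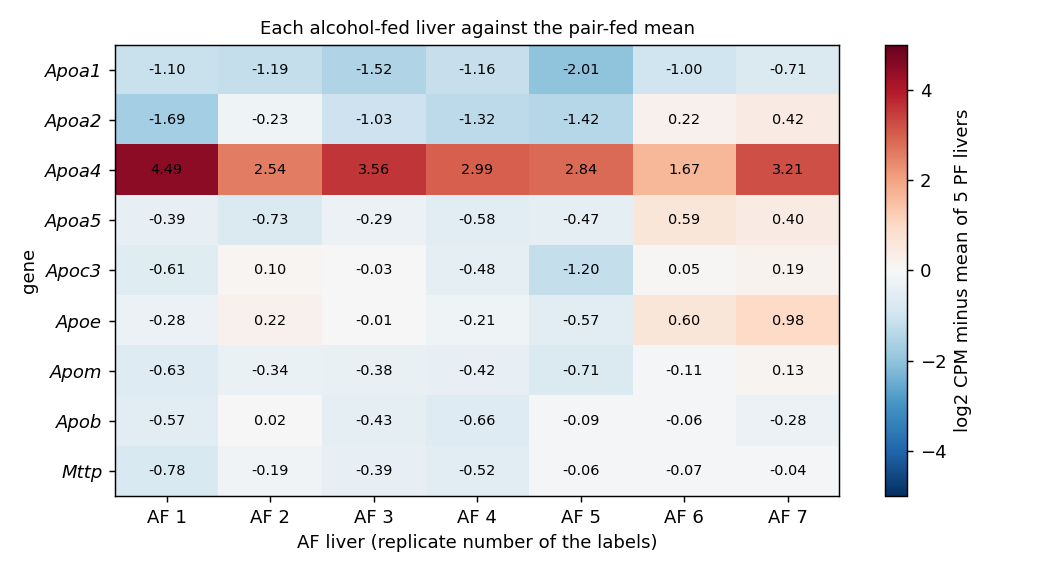
Log2 CPM of each AF liver minus the mean of the 5 PF livers, for 9 genes (rows; Apoc2 left out for its low counts) and 7 livers (columns); red, above PF, and blue, below. Apoa4 is red in every liver (1.67 to 4.49) and Apoa1 blue in every liver (-2.01 to -0.71), and Apoa2 and Apoe are highest in replicates 6 and 7.

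With the group means removed, some of the genes varied together over the 12 livers and others did not, which is a description over libraries that share their scaling. Pearson's r was 0.91 between Apoe and Apoa2, 0.91 between Apoe and Apom and 0.74 between Apob and Mttp, whereas it was -0.69 between Apoa4 and Mttp, -0.31 between Apob and Apoa1 and -0.01 between Apob and Apoc3. Of the 8347 genes whose log2 CPM averaged at least 3, the most like Apoa1 was Rptor (r = 0.93), the most like Apoa4 Pacs2 (0.93) and the most like Apob Usp24 (0.92). Echs1, an enzyme of fatty acid oxidation, followed Apoa2 most closely (0.99) and Serpinf1 followed Apoe (0.99). Apoa5 was followed by Plbd2 (0.97), Apoc3 by Iah1 (0.96) and Apom by Wdr81 (0.96).

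The genes around these members were taken from 6 lists, whose counts stand against 39.8% of all genes past the threshold, 22.0% higher and 17.8% lower. With library totals in place of TMM all genes shift upward together, and 6458 of 14168 pass higher and 938 lower. Of 17 genes tested in a list of other genes with apolipoprotein names and HDL proteins, 8 fell, 1 rose and 8 did not pass (52.9% past the threshold, against 39.8% of all genes), with a median log2 fold change of -0.55 against 0.04 for all genes. The 1 that rose was Apobr (1.15), which encodes a receptor for apolipoprotein B and is no apolipoprotein, and Apool, among those that fell (-0.40), encodes a protein of the mitochondrial inner membrane, both named after their values were seen. The serum amyloid A genes, of which Saa1 and Saa2 encode acute-phase proteins that can replace apolipoprotein A-I on HDL and Saa4 a constitutive form, lay lower in every AF liver than in any PF liver. Saa1 was at 9277 ± 4288 CPM in PF and 1825 ± 1817 CPM in AF (log2 fold change -2.35, edgeR adjusted p = 0.0382), Saa2 had a log2 fold change of -2.60 (edgeR adjusted p = 0.0355) and Saa4 of -1.97 (edgeR adjusted p = 0.0040). Saa1 and Saa2, close paralogs whose reads may be shared, kept their calls in 17 and 19 of 24 alternatives and Saa4 in all 24. Leaving out PF replicate 1 or 3 or AF replicate 3 or 7 cost both Saa1 and Saa2 their calls, and leaving out PF replicate 2 or 4 or AF replicate 4 that of Saa1. With limma-voom Saa2 was at -3.73 and lost its call (limma adjusted p = 0.0554), and Saa1 was at -3.33. Over the 24 alternatives Saa1 ran from -4.22 to -1.93 and Saa2 from -4.77 to -2.18, both lowest with blocking on the replicate number. Saa4 ran from -2.70 to -1.55.

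Of 24 genes in a list around the lipidation of VLDL in the endoplasmic reticulum, 3 rose, 5 fell and 16 did not pass (33.3% past the threshold, against 39.8% of all genes). The list is wider than lipidation itself: it holds the lipid droplet gene Plin2 and the mRNA editing gene Apobec1, both among the 3 that rose. Plin2, the coat protein of lipid droplets, rose from 291 ± 32.5 to 565 ± 232 CPM (log2 fold change 0.95, edgeR adjusted p = 0.00713). Apobec1, which edits Apob mRNA to give the short form of the protein, rose by 0.57 (edgeR adjusted p = 0.0108), and Tm6sf2, a factor of VLDL lipid loading, by 0.50 (edgeR adjusted p = 0.00267). The hydrolases Ces3a and Aadac fell by 2.78 and 1.29 on the log2 scale (edgeR adjusted p = 0.0326 and 6.06e-05). Ces1d (-0.43, edgeR adjusted p = 0.473) and Ces1g (0.16, edgeR adjusted p = 0.632), hydrolases of the same list, did not pass. Both were named after their values were seen. Acsl3, an acyl-CoA synthetase, fell by 1.09 (edgeR adjusted p = 6.27e-04), though with scaling to hepatocyte markers Acsl3 was at -0.46 and did not pass. Ces3a ranged from 8.11 to 905 CPM among AF livers and lost its call in 8 of 24 alternatives, all of them with a single liver left out (any of the 5 PF livers, or AF replicate 3, 4 or 7). Over the 24 alternatives its log2 fold change ran from -5.41 (blocking on the replicate number) to -2.44 (scaling to hepatocyte markers). It was -4.31 with limma-voom and -3.48 without AF replicate 6. P4hb, the partner subunit of the Mttp protein, had a log2 fold change of 0.39 (edgeR adjusted p = 0.110), Cideb of -0.37 (edgeR adjusted p = 0.0556) and Pltp of 0.43 (edgeR adjusted p = 0.126). These 3 genes passed in 3 (P4hb), 7 (Cideb) and 3 (Pltp) of 24 alternatives, among them without AF replicate 1 for P4hb and without AF replicate 6 or 7 for Cideb, whose sign turned to 0.17 with scaling to hepatocyte markers. Cideb overlaps Nop9, and Pltp overlaps Ctsa, on the opposite strand.

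Of 25 genes of VLDL export from the endoplasmic reticulum to the Golgi, 7 fell, 1 rose and 17 did not pass (32% past the threshold, against 39.8% of all genes). With library totals 12 were higher and 1 lower, as the shift of all genes moves them. Sar1b, the small GTPase of the transport coat, had a log2 fold change of -0.47 (edgeR adjusted p = 0.0350) and kept that call in 14 of 24 alternatives. Its call was lost when PF replicate 2, 3, 4 or 5 or AF replicate 1, 3 or 4 was left out, with the filter of 1 count, with library totals (-0.15) and with scaling to hepatocyte markers, where its sign turned to 0.044. Svip (-0.99, edgeR adjusted p = 3.90e-04) kept its call in all 24 alternatives, while Sec24a (-0.65, edgeR adjusted p = 0.00239) and Vamp7 (-0.58, edgeR adjusted p = 0.00434) lost their calls with library totals and with scaling to hepatocyte markers. Sec24b rose by 0.30 (edgeR adjusted p = 0.0106), and the cargo receptor Surf4 had a log2 fold change of 0.12 (edgeR adjusted p = 0.370) and passed higher with library totals (0.46) and with scaling to hepatocyte markers (0.67).

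Of 20 receptor and uptake genes tested, 3 rose, 4 fell and 13 did not pass (35% past the threshold, against 39.8% of all genes), with a median of 0.01. Vldlr, a receptor for triglyceride-rich particles, rose from 2.35 ± 1.18 to 27.3 ± 12.7 CPM (log2 fold change 3.53, edgeR adjusted p = 6.32e-05), and the fatty acid carrier Cd36 from 112 ± 56.4 to 428 ± 43.9 CPM (1.93, edgeR adjusted p = 2.91e-04). Sdc1, a proteoglycan that binds remnants, rose by 0.49 (edgeR adjusted p = 0.00475). Asgr2, a subunit of the asialoglycoprotein receptor, fell by 0.80 (edgeR adjusted p = 0.0192). Vldlr, Cd36 and Sdc1 kept their calls in all 24 alternatives, and Asgr2 lost its call with scaling to hepatocyte markers.

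Of 16 genes for plasma lipases, their regulators and lipid transfer, 4 rose, 2 fell and 10 did not pass (37.5% past the threshold, against 39.8% of all genes). Lpl, lipoprotein lipase, rose from 45.1 ± 19.2 to 409 ± 262 CPM (log2 fold change 3.18, edgeR adjusted p = 6.67e-04). The cholesterol exporter Abcg1 rose by 1.50 (edgeR adjusted p = 0.00174) and Pla2g7, a lipoprotein-bound phospholipase of macrophages, by 1.38 (edgeR adjusted p = 0.00148). All 3 are also expressed by macrophages, whose summed markers rose, and the part of these cells was not tested. Lipg, endothelial lipase, fell from 16.3 ± 7.22 to 2.62 ± 0.802 CPM (-2.64, edgeR adjusted p = 3.49e-05). Lcat, the enzyme that apolipoprotein A-I activates, had a log2 fold change of -0.56 (edgeR adjusted p = 0.0463), a call kept in 10 of 24 alternatives. It was lost with upper-quartile factors (-0.51), library totals (-0.24), scaling to hepatocyte markers (-0.049) and the filter of 1 count, and when any PF liver or any of AF replicates 1 to 5 was left out. Lipc, hepatic lipase, had a log2 fold change of -0.33 (edgeR adjusted p = 0.266), which turned to 0.16 with scaling to hepatocyte markers.

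Of 30 transcription factors and cofactors that act on apolipoprotein genes, 9 fell, 1 rose and 20 did not pass (33.3% past the threshold, against 39.8% of all genes), with a median of -0.31. With library totals, under which all genes shift upward, 6 were lower and 6 higher. Ppargc1a, a coactivator of fasting metabolism, fell from 19.7 ± 7.59 to 5.33 ± 0.581 CPM (log2 fold change -1.89, edgeR adjusted p = 3.29e-05). Ppara, the receptor for fatty acids that regulates Apoa1 and Apoa5, fell from 119 ± 18.5 to 47.1 ± 27.0 CPM (-1.34, edgeR adjusted p = 0.00462), and Srebf1 from 115 ± 40.0 to 45.5 ± 18.6 CPM (-1.34, edgeR adjusted p = 0.00339). Srebf1 lost its call with scaling to hepatocyte markers. Nr1h2, a sterol receptor, rose by 0.57 (edgeR adjusted p = 0.00642). Hnf4a, the main activator of liver apolipoprotein genes, had 669 ± 105 CPM in PF and 571 ± 198 CPM in AF (log2 fold change -0.23, edgeR adjusted p = 0.401), with a sign that turned with library totals. Without AF replicate 6, its highest AF liver, Hnf4a passed at -0.41 (edgeR adjusted p = 0.0389). Creb3l3, a liver factor known to drive Apoa4 in mice, had a log2 fold change of 0.12 (edgeR adjusted p = 0.666), passed higher with library totals at 0.44 (edgeR adjusted p = 0.0181) and was at -0.027 without AF replicate 6.

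**Figure D5:**
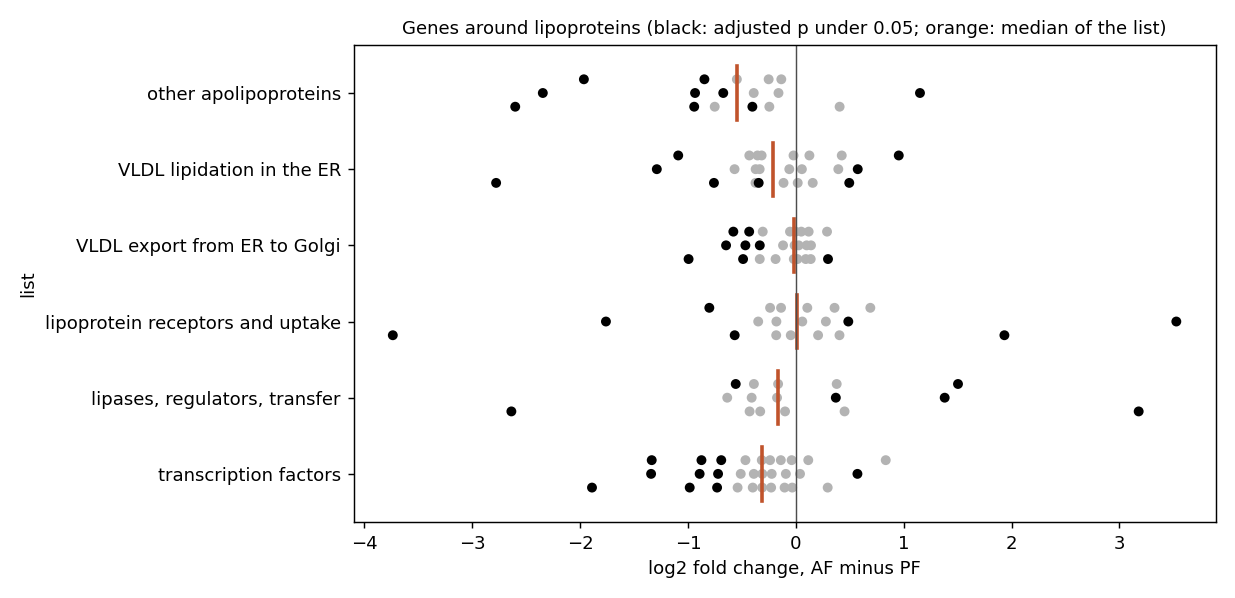
Log2 fold change (AF minus PF) of each gene tested in the 6 lists, 1 point per gene, black where past the threshold, with the median of each list as an orange bar. The medians lie between -0.55 for the list of other apolipoproteins and 0.01 for receptors and uptake, and the highest point among receptors is Vldlr (3.53).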

How the data were processed

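Whole liver RNA of 5 PF and 7 AF mice was sequenced giving 12 libraries. Raw counts by Ensembl ID were deposited by the authors, made per the labels from a stranded kit with poly(A) enrichment, aligned with TopHat2 2.0.13 to GRCm38 and counted with HTSeq 0.10.0 per the submitters' processing notes, with FastQC 0.10.1 for read quality. Annotation and strand setting of the counting are not given in the sources used here. All columns were used as deposited. The authors' own FPKM tests were not used here.

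Genes were named by GENCODE M21 (54165 of 54232 IDs). Counts were scaled by TMM, filtered with filterByExpr (14168 genes) and tested with edgeR 4.0.16 in R 4.3.3 without covariates, with Benjamini-Hochberg adjustment. The standard error was derived from the F statistic. Other tools were limma 3.58.1 and DESeq2 1.42.0, with figures from matplotlib 3.10.9. A pseudocount of 0.1 CPM was used for log2 values per liver. Transcript length, also in the length offset, stands for the merged exon length of a gene. P-values measure the spread between mice. The 31 pairs of libraries within groups all differed by more than counting noise. The fits were tested on simulated counts with few genes changed, as many up as down, and the permutation test on made-up values. Such counts cannot check the scaling where many genes differ, and the annotation, motif and Dixon steps were not simulated.

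The members and the gene lists were chosen with earlier results of these data known, and the half-site variants after the sequences had been read. From each list the text names up to 3 genes in each direction past the threshold with the largest change and a mean log2 CPM of at least 3, plus Apoc1, Cideb, Tm6sf2, P4hb, Sar1b, Surf4, Lpl, Lipc, Lcat, Pltp, Hnf4a, Ppara and Creb3l3. A few genes that this rule takes are not reported here. Gene list symbols with too few counts (Apod, Apol6, Sorcs1, Lrp8, Npc1l1) were not tested. Alternatives were other scalings, tools and filters, blocking on the replicate number, leaving out single libraries and, chosen after seeing the data, an offset for transcript length.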

Additional observations from a re-analysis of the deposited data

Results flagged for a closer look

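In 3 cases 1 liver stood apart from the rest of its group by Dixon's criterion, of 110 groups of values examined, in which chance alone gives about 5.5, or 1 in 20. Apoc2 was lowest in PF replicate 5 at 0.181 CPM, a gene with 4 to 18 counts per library. Saa4 was highest among AF livers in replicate 6 at 999.7 CPM. Hnf4a was also highest among AF livers in replicate 6, at 979.8 CPM.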

How the results depend on the processing

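Over 24 alternatives, Apoa4 (2.86 to 3.92) and Apoa1 (-1.39 to -0.65) kept direction and call, with edgeR, limma or DESeq2 adjusted p of at most 0.00102 and 0.0067. The scaling decided the sign of genes with small differences. With library totals the median of all genes was 0.40 (log2), and 6458 genes passed higher and 938 lower, against 3116 and 2519. Apoa5 was then at 0.15, Apob 0.051, Apoc2 0.068, Apoc3 0.10 and Mttp 0.064, none past the threshold, and Apoe passed at 0.49. With scaling to hepatocyte markers the median was 0.61, 7906 genes passed higher and 536 lower, and Apoa5 was at 0.35, Apob 0.25, Apoc2 0.26, Apoc3 0.29, Apom 0.20 and Mttp 0.27, with Apoe past the threshold at 0.67. With sample quality weights in limma-voom, under which 7513 genes passed against 5635, Apoa2 (-0.81), Apob (-0.40) and Mttp (-0.34) passed and Apoc2 was at 0.039. The cause was not tested.

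The labels state no pairing of livers by replicate number. Same-numbered livers deviated together with r of -0.08 to 0.11, over 0.1 in 2 of 5 numbers. The controls were pair-fed, and a low r cannot exclude that the numbers reflect pairs in feeding or handling. With the replicate block 6335 genes passed against 5635. In this fit AF replicates 6 and 7 have no partner and so carry no weight. Apoa2 (-1.14), Apom (-0.50), Lipc (-0.65), Hnf4a (-0.49) and Cideb (-0.51) then passed, Apoe was at -0.17, and the log2 differences of the ratios over the 5 paired numbers were -0.040 for Mttp to Apob, 4.68 for Apoa4 to Apoa1, 0.90 for Apoa5 to Apoa1, 0.95 for Apoc3 to Apoa1 and 0.90 for Apom to Apoa1, with exact p not below 0.0625, the smallest that 5 pairs allow.

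With 1 liver left out, Apoe ranged from -0.0079 (without AF replicate 7) to 0.27 and Apom from -0.45 (past the threshold, without AF replicate 7) to -0.26. Apoa5 ranged from -0.34 (without AF replicate 6) to -0.018 (without PF replicate 2), Apoc3 from -0.31 to -0.11 (without AF replicate 5) and Apoc2 from -0.50 (without PF replicate 5) to -0.15 (without AF replicate 5), none past the threshold. The ratio of Mttp to Apob ranged from -0.044 to 0.054, that of Apoa2 to Apoa1 from 0.40 to 0.70 (past the threshold without AF replicate 1), and that of Apoc2 to Apoc3 from -0.28 to 0.16, with -0.027 when 2 was added to each count.

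List counts moved as well, and so did the count over all genes. In either direction, 7513 of 14168 genes passed with quality weights, 6223 with DESeq2 and 6335 with the block, against 5635. The length offset gave 5925 of 14161, and leaving out AF replicate 6 gave 6497 of 14103. The list of other apolipoproteins had 2 higher, against 1, with upper-quartile factors, library totals, hepatocyte markers, DESeq2, quality weights and the transcript length offset. It had 4 lower, against 8, with hepatocyte markers, and 13 with the replicate block. VLDL lipidation had 9 higher and 3 lower with library totals, 11 and 2 with hepatocyte markers, against 3 and 5, and 9 and 10 lower with quality weights and the block. VLDL export had 12 higher and 1 lower with library totals, 15 and 1 with hepatocyte markers, against 1 and 7, and 2 higher with the length offset. Receptors had 11 higher with library totals, 13 with hepatocyte markers (2 lower, against 4), 7 with quality weights, 7 with the block and 6 with the length offset, against 3. Lipases had 1 lower, against 2, with upper-quartile factors, library totals, hepatocyte markers and the filter of 1 count, 4 with DESeq2, 5 with quality weights and 6 with the block. Transcription factors had 6 higher with library totals, 8 with hepatocyte markers (2 lower) and 3 with quality weights, against 1, and 14 and 16 lower with quality weights and the block, against 9. With 1 liver left out, counts ran from 1 to 2 for other apolipoproteins higher (2 without AF replicate 5), 3 to 5 for receptors higher (5 without PF replicate 4 or AF replicate 5 or 6), 1 to 2 for lipases lower, and 1 to 2 higher and 7 to 14 lower for transcription factors (14 without AF replicate 6). Apoc2 had 4 to 18 counts per library, and the cause of this low count was not tested.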
